A study of Mus musculus with 2 samples.

Results

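Nuclear factor I (NFI) proteins are dimeric DNA-binding factors that recognise the bases TTGGC and, in full sites, an inverted second copy of them. In the mouse retina NFIA, NFIB and NFIX are known as factors of late-stage progenitors, where they favour the production of bipolar cells and Müller glia and exit from the cell cycle. At E14.5, the stage measured here, early neurons such as retinal ganglion cells are being made. The accessibility of NFI patterns at this stage is described here for every motif of the family in the data, chosen by name: NFIA, NFIX, NFIC and NFIC::TLX1, 4 of the 579 transcription factor motifs counted.

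The samples were 2 replicate libraries of dissociated retina from wild-type (WT) E14.5 mouse embryos, profiled cell by cell with the 10x Genomics assay for transposase-accessible chromatin. There was 1 group and no treatment, and nothing in the labels ties the replicates to separate animals, so every SD measures the spread between 2 libraries, which may be technical. A motif count is the number of transposase cuts in all peaks that hold the sequence pattern. It is neither binding by the factor nor expression of its gene, and the family's members can be counted from the same peaks. Values are shares, in percent, of all motif counts of a cell or library. No 2 rows of the family had identical counts, and no other motif was identical to any of them.

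Cells were kept if they held at least 300000 motif counts and more than the same barcode in the other library, which left 890 of 2422 barcodes in replicate 1 and 1051 of 3033 in replicate 2. Per kept cell, the median total was 3519150 in replicate 1 and 3523870 in replicate 2. The libraries shared 1828 barcodes, and 872 and 925 of the kept cells had a copy of their barcode in the other library. The shallower copy of a shared barcode held a median of 1.06% of the counts of the deeper one. The labelled tissue was checked through motifs, since no gene was measured: groups of cells led by ganglion cell (POU4F) motifs and by proneural (NEUROD) motifs were both present.

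The letters that the family reads are shown here because the deposited files name the motifs without their sequence. In the RefSeq promoters of the mouse build GRCm38.p6, windows from 250 bases before to 50 after each start site, the half-site TTGGC or its complement GCCAA occurred in 15344 of 32851 windows (46.7%). The full site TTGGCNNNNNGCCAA, which reads the same on both strands and contains the half-site, occurred in 12 (0.0365%). Of the genes that give the motifs their names, Nfix had 4 promoters in the table, 3 of them with a half-site, and Tlx1 had 1 with a half-site. Nfia and Nfic had 1 promoter each with no match, which says only that these letters are not in that window. The first 3 full sites in chromosome order and 1 half-site from each Nfix promoter that held one follow, 5′ to 3′, with 1 match per window in capitals.
Fam160a1, chr3:85746297-85746319, minus strand: gattTTGGCcagctGCCAAtagt
Gstm7, chr3:107931856-107931878, minus strand: gctcTTGGCactcaGCCAAgcca
Galt, chr4:41755477-41755499, plus strand: cgtgTTGGCgactaGCCAAtcat
Nfix, chr8:84775991-84776011, minus strand: cttttgttTTGGCtcacccca
Nfix, chr8:84773370-84773390, minus strand: atcaggcgTTGGCtttgccgg
Nfix, chr8:84772860-84772880, minus strand: gccaaacaTTGGCcagtccgg
The lower-case gccaa that opens the last window is a further half-site of the same promoter. These windows illustrate the pattern only. Which peaks were counted for each motif was not analysed here. In the same build Nfia lies on chromosome 4 (97578066 to 98118876), Nfix on chromosome 8 (84704712 to 84801238), Nfic on chromosome 10 (81396191 to 81431919) and Tlx1 on chromosome 19 (45150092 to 45156943).

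The first question was how accessible the family's patterns were in each library. NFIX, a factor of the late progenitor programme, had the highest share of the family, 0.159% of motif counts in each library (0.159% ± 0.00030, SD, n = 2), a rank of 120 and 121 among the 579 motifs. A kept cell had a median of 5586 NFIX counts in replicate 1 and 5626 in replicate 2. NFIA stood at 0.0665% in replicate 1 and 0.0669% in replicate 2, with 2318 and 2348 counts in the median cell. These levels put NFIX and NFIA in the upper part of the table in both libraries, with the libraries differing by under 0.01 on the log2 scale for either.

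NFIC::TLX1, the pattern of NFIC joined with the homeodomain factor TLX1, was the rarest of the family. TLX1 is known from spleen development and T-cell leukaemia and is not the orphan receptor Nr2e1 that is also called Tlx. The motif had 0.0153% of counts in replicate 1 and 0.0155% in replicate 2, rank 446 in both, and 532 and 536 counts in the median cell. Between the libraries NFIC::TLX1 differed by a log2 ratio of −0.026, close to the median absolute ratio of all motifs, 0.021.

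NFIC, the remaining member, did not have 1 level. Its share was 0.0508% in replicate 1 and 0.0376% in replicate 2, a log2 ratio of 0.43 or 1.35-fold, and its rank moved from 242 to 307. Only FOSL1 and 1 other motif had a higher ratio, and FOSL2 (0.39) came next below. With the 5% of cells at either end left out, NFIC shares ran from 0.0467 to 0.0549% in replicate 1 and from 0.0343 to 0.0411% in replicate 2, so these ranges did not overlap. The full ranges did, 0.0398 to 0.0634% and 0.0207 to 0.0486%. Of the 890 cells of replicate 1, 0 were under the median of replicate 2, and of the 1051 cells of replicate 2, 0 were above the median of replicate 1. With 1 library on each side the difference has no test.

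**Figure D1:**
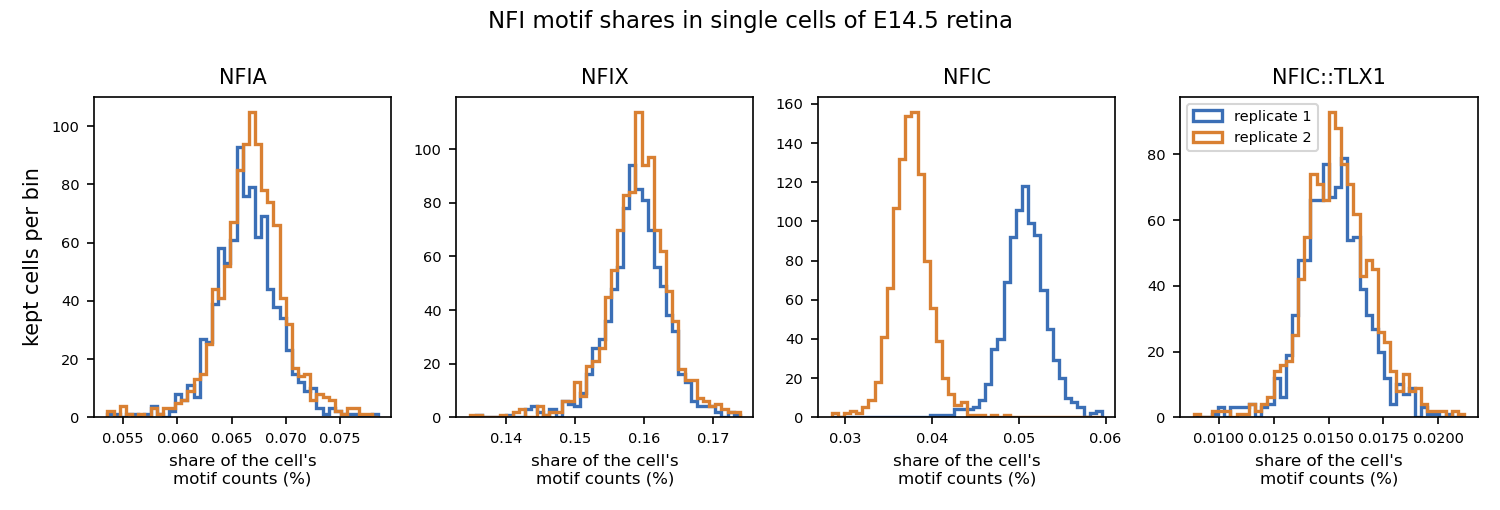
Histograms of the share of each NFI motif (x axis, percent of the motif counts of a cell) over the kept cells of each library (y axis, cells per bin; the most extreme cells lie outside the plotted range). NFIA, NFIX and NFIC::TLX1 have overlapping curves in replicates 1 and 2, whereas NFIC is centred at 0.0508% in replicate 1 and 0.0375% in replicate 2.

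The NFIC gap had much the same size wherever it was measured. In 6 clusters of cells, described further on, the log2 ratio of replicate 1 to replicate 2 for NFIC lay between 0.42 and 0.45. In the low, middle and high tertiles of cells by total, NFIC had 0.0506, 0.0508 and 0.0508% in replicate 1 and 0.0374, 0.0376 and 0.0376% in replicate 2. The barcodes that were left out showed the same pair of levels, 0.0507% and 0.0372%.

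The shared barcodes gave a further reading of NFIC. For 872 barcodes kept in replicate 1, NFIC had 0.0508% of counts there and 0.0372% in their shallow copies in replicate 2. For 925 barcodes kept in replicate 2, NFIC had 0.0376% there and 0.0507% in their shallow copies in replicate 1. The level of NFIC thus went with the library in which a barcode was counted and not with the library in which that barcode was deep. The same copies of NFIA differed far less, 0.0665 and 0.0675% for the first set and 0.0669 and 0.0687% for the second. The peak set and the motif matches of each library were not analysed here, and their part in the NFIC gap was not tested. NFIC levels are therefore given per library, and its variation is judged within a library.

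The second question was how much the motifs varied between cells. Counts were scaled to equal depth. The SD over the mean across cells (CV) left after Poisson counting noise is removed is called excess CV. Counting noise beyond the Poisson model was not estimated and would remain in it. NFIX had an excess CV of 2.43% in replicate 1 and 2.32% in replicate 2. NFIA had 3.87% and 3.72%, and NFIC 4.25% and 4.87%. NFIC::TLX1 had 8.35% and 8.85%. The median over all 579 motifs was 6.19% and 6.27%, so NFIA, NFIX and NFIC were below it in both libraries and NFIC::TLX1 was above it in both. The size of these CVs depended on the cells used: without shared barcodes they averaged 4.87% for NFIX, 6.79% for NFIA, 8.30% for NFIC and 15.5% for NFIC::TLX1, and with all deposited barcodes 14.7, 23.6, 28.8 and 49.6%.

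Rare motifs had higher excess CVs, with a straight-line slope of log2 CV on log2 mean count of −0.32 in replicate 1 and −0.33 in replicate 2, so a motif is best read against others of like count. On the log2 scale, the residual from that trend was −0.76 ± 0.081 for NFIX (SD, n = 2), −0.41 ± 0.070 for NFIA and −0.32 ± 0.010 for NFIC. These residuals placed NFIX at 565, NFIA at 525 and NFIC at 505 when the 579 motifs were ranked from the most to the least variable for their count. NFIX stood between Foxj2 and Dux, and NFIA between SOX10 and Hic1. NFIC::TLX1 lay close to the trend at 0.055 ± 0.032, rank 236, beside NR1A4::RXRA and DLX6.

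**Figure D2:**
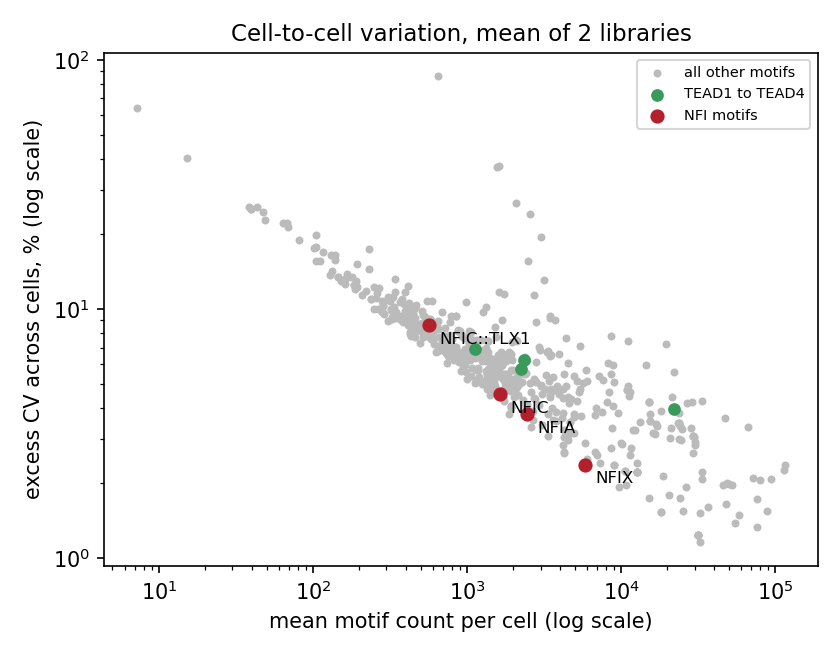
Excess CV across cells (y axis, percent, log scale) against the mean motif count per cell (x axis, log scale), each the mean of 2 libraries, for 579 motifs. NFIX, NFIA and NFIC, in red, lie in the lower part of the cloud for their count at 2.37, 3.79 and 4.56%. NFIC::TLX1, also in red, lies nearer its middle at 8.60%, and the TEAD motifs are in green.

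Of the family, 1 of 4 motifs lay above the trend in both libraries, against 260 of all 579. Motifs of TEAD factors, the DNA-binding partners of YAP in Hippo signalling that are also read in progenitors, lay above it in 4 of 4 cases, with a median residual of 0.22 against −0.36 for the family. The other motifs of late progenitors and glia (SOX8, SOX9, LHX2, HES1, HES5, HEY1, HEY2, Nr2e1 and RBPJ) had a median of −0.0067, and 2 of 9 exceeded the trend in each library. HIC1 and HIC2, zinc-finger repressors whose patterns resemble an NFI half-site, had −0.39, with 0 of 2 above it. These medians are descriptions with no test.

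Depth moved with the excess CV. From the low to the high tertile of cells by total, NFIX fell from 3.39 to 1.59% in replicate 1 and from 3.20 to 1.52% in replicate 2, while the median motif fell from 7.82 to 4.53% and from 8.21 to 4.46%. NFIC::TLX1 went from 10.7 to 6.88% and from 11.6 to 7.24%. In each tertile of each library NFIA, NFIX and NFIC were under the median motif and NFIC::TLX1 above it. The share of NFIX was 0.158% in the low tertile and 0.159% in the high tertile of replicate 1, and 0.159% and 0.160% in replicate 2. For NFIA these were 0.0660 and 0.0668%, and 0.0666 and 0.0672%. The mean r of the share with the log10 total was 0.13 for NFIX, 0.12 for NFIC::TLX1, 0.045 for NFIA and 0.027 for NFIC. Such shifts are small, but so are the cluster folds given further on, and the part of depth in them was not tested.

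A further question was whether the family rose and fell together from cell to cell. Correlations were taken across the cells of a library on log2 shares with the cell total regressed out. They are descriptions, since cells share a library and motifs share peaks. Poisson counting noise made up 29.4 to 37.7% of the variance of a member's shares, which lowers every r. NFIA and NFIX had an r of 0.34 in 890 cells of replicate 1 and 0.36 in 1051 cells of replicate 2. For either of them the other was the motif with the highest mean r of all.

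The rest of the family did not follow that pair. NFIC had an r of 0.032 and 0.058 with NFIA and of 0.071 and 0.11 with NFIX in replicates 1 and 2, and 281 motifs had a higher mean r with NFIA than NFIC had. NFIC and NFIC::TLX1 reached 0.22 and 0.19. NFIC::TLX1 had 0.067 and 0.12 with NFIA and 0.065 and 0.042 with NFIX. The family thus did not form a single block of covarying motifs. The link of NFIC and NFIC::TLX1 depended on the cells used: its mean r of 0.20 became 0.076 with all deposited barcodes and 0.30 without shared barcodes.

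The motifs outside the family with the closest patterns also differed between members. For NFIA they were BARX1 (mean r 0.32), a homeodomain motif, and Sox17 (0.31) and Sox2 (0.30), and the lowest was NRF1 (−0.33), a GC-rich promoter motif. For NFIX they were Sox17 (0.25), LHX2 (0.25), a homeodomain factor of retinal progenitors and Müller glia, and BARX1 (0.24). ARNT::HIF1A (−0.27) was lowest for NFIX. For NFIC they were RHOXF1 (0.30), EWSR1-FLI1 (0.29) and RBPJ (0.28), the DNA-binding partner of Notch, with ZNF384 (−0.30) lowest. For NFIC::TLX1 they were Sox3 (0.33), Sox2 (0.32) and EWSR1-FLI1 (0.31), and ZNF384 (−0.38) was lowest again. Likeness was the mean r of 2 libraries; no motif passed 0.7 with any member.

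Set against motif lists, NFIA had its highest values with lists of progenitor factors: its mean r was 0.32 with progenitor SOX motifs, 0.27 with progenitor homeodomain motifs, 0.25 with TEAD motifs and 0.22 with the other late progenitor and glia motifs. Cells in the high tertile for the SOX list exceeded those in the low tertile in log2 NFIA share by 0.041 ± 0.000093 (SD, n = 2). SOX8, SOX9 and LHX2 are each on more than 1 of these lists. For the same 4 lists NFIX had 0.23, 0.19, 0.16 and 0.19. Not every list tied to progenitors had a positive r: with cell cycle motifs NFIA had −0.16, NFIX −0.11, NFIC −0.040 and NFIC::TLX1 −0.17. The cell cycle list shares E2F4 with the GC-rich promoter list. High minus low tertile differences for it averaged −0.0073 for NFIA, 0.0013 for NFIX, −0.0040 for NFIC and −0.037 for NFIC::TLX1. For NFIX their sign differed between libraries (0.0044 and −0.0017). Pigment epithelium motifs had an r of −0.26 with NFIA and −0.19 with NFIX, and horizontal and amacrine motifs −0.19 and −0.086. With ganglion motifs (POU4F, ISL2 and EBF1) NFIA had −0.0047 and NFIX 0.019, and with proneural bHLH motifs −0.0039 and 0.076. The ganglion values had opposite signs in replicates 1 and 2, −0.058 and 0.048 for NFIA and 0.056 and −0.019 for NFIX. NFIA with proneural bHLH motifs changed sign too (−0.016 and 0.0081).

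NFIC stood apart in this too. Its r was 0.23 with proneural bHLH motifs, 0.18 with photoreceptor motifs, 0.12 with progenitor SOX motifs and 0.027 with TEAD motifs. The TEAD value had opposite signs in replicates 1 and 2 (−0.011 and 0.066). So had the high minus low tertile difference of NFIC for SOX motifs (−0.0068 and 0.014). With photoreceptor motifs NFIA had 0.12, NFIX 0.13 and NFIC::TLX1 0.12. NFIC::TLX1 had 0.18 with proneural bHLH, 0.18 with SOX and 0.16 with ganglion motifs. HIC1 and HIC2 together had an r of 0.29 with NFIC::TLX1 and 0.23 with NFIC, but 0.12 with NFIX and 0.070 with NFIA. Every member had a negative mean r with GC-rich promoter motifs, −0.32 for NFIA, −0.23 for NFIX, −0.14 for NFIC and −0.27 for NFIC::TLX1. Shares of 1 total are not independent of each other, and the part of promoter accessibility in the other correlations was not tested. Microglia motifs had a mean r from 0.015 to 0.071 and endothelium and blood motifs from −0.069 to −0.0055 with the members. For NFIA the sign differed between libraries with microglia motifs (−0.045 and 0.075) and with endothelium and blood motifs (−0.016 and 0.0044).

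**Figure D3:**
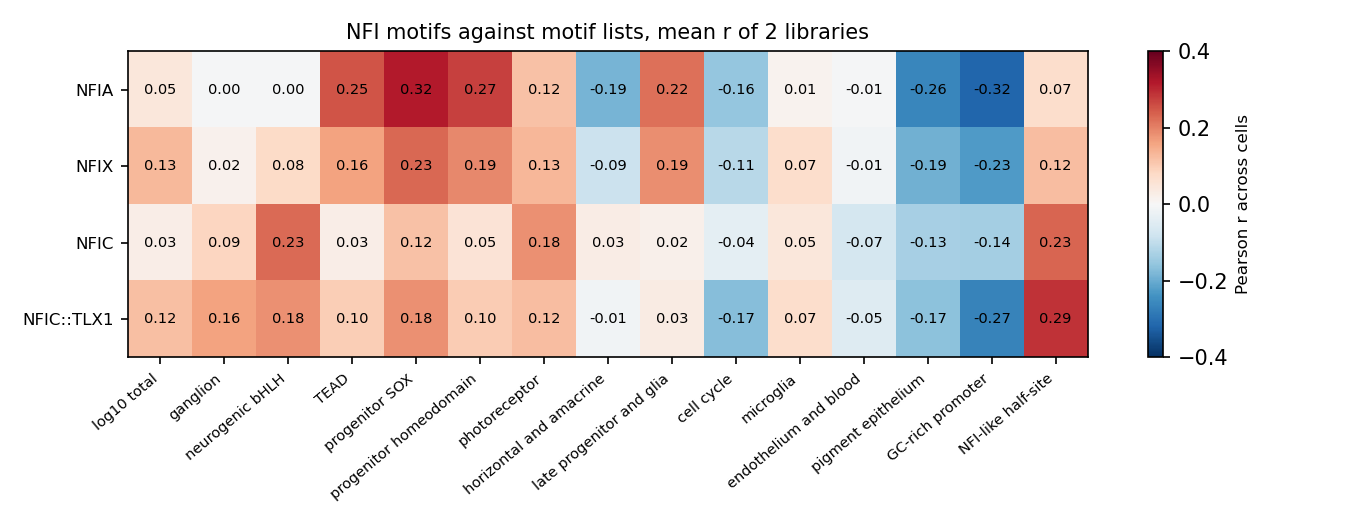
Pearson r across cells, mean of 2 libraries, of each NFI motif (rows) with the log10 cell total and with the mean of each motif list (columns), blue for negative and red for positive values. NFIA and NFIX are reddest for progenitor SOX motifs (0.32 and 0.23), NFIC for the half-site-like list and proneural bHLH motifs (both 0.23), and all 4 rows are blue for GC-rich promoter motifs.

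The last question was whether the motifs differed between kinds of cells that had been defined without them. Cells were clustered on the other 575 motifs, and counts summed per cluster and library were tested with edgeR, with the library as a block. Motifs can share peaks and have 1 total, so these clusters are not independent of the NFI counts. The edgeR p-values do not account for this. Of the 6 clusters, number 3 was ganglion-like, led by POU4F1, POU4F3 and POU4F2, and number 5 was neurogenic bHLH-like, led by NEUROD1, NEUROD2 and Neurog1. The others were left unnamed. Their leading motifs were MYBL1, ZBTB7B and CENPB in cluster 1, and MYBL1, Sox1 and SOX4 in cluster 2. They were MYBL1, E2F1 and NR1H4 in cluster 4, and ZBTB7B, ZBTB7C and HIF1A in cluster 6. MYBL1 had a mean of only 7.19 counts per cell and E2F1 of 43.2, so both rest on few counts. Of the 8 cell cycle motifs, E2F1 among them, 3 were higher and 5 lower in cluster 4. Clusters 1 to 6 held 29.2, 21.9, 16.1, 12.4, 13.5 and 6.97% of the cells of replicate 1.

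All 4 NFI motifs differed between clusters (edgeR adjusted p from 1.88e-07 for NFIC::TLX1 to 8.07e-05 for NFIC), but so did 97.9% of all motifs, and the count alone is no result about the family. For NFIA, NFIX and NFIC the size of the difference was under that of the median motif. The clusters highest and lowest for a motif were chosen in 1 library and the log2 difference was read in the other. It was 0.068 ± 0.00026 (SD, n = 2) for NFIA, 0.036 ± 0.0038 for NFIX and 0.050 ± 0.011 for NFIC, which are 1.05-, 1.03- and 1.04-fold. At a Leiden resolution of 1.0 the difference of NFIX was 0.020, in the middle tertile of cells by total that of NFIC was 0.032, and over all settings tried NFIA ran from 0.055 to 0.068. The median motif differed by 0.12, and the members' ranks among 579 were 468, 543 and 524. NFIC::TLX1 differed by 0.14 ± 0.032, or 1.10-fold, rank 223. These differences and ranks were not adjusted for motif count, and the part of count in them was not tested. Without the replicate block NFIC was not called (edgeR adjusted p = 0.9999), the other 3 were, and 60.3% of all motifs passed.

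Cluster 4 was the only one of the 6 in which every member was called higher, in a cluster where 38.5% of all motifs were higher and 40.1% lower. NFIC::TLX1 was 0.0160% there in replicate 1 and 0.0166% in replicate 2, above its level in the other 5 clusters of either library. Its log2 fold against the mean of the other clusters was 0.099 ± 0.0088 (SE; edgeR adjusted p = 9.05e-08). NFIC followed with 0.031 ± 0.0057, NFIA with 0.020 ± 0.0039 and NFIX with 0.0089 ± 0.0029 (edgeR adjusted p = 0.0125). Without the replicate block NFIX and NFIC were not called in this cluster (edgeR adjusted p = 0.106 and 0.968). In the same cluster 4 of 4 TEAD motifs were higher, led by TEAD2 (0.10), as were 6 of 9 other late progenitor and glia motifs, led by HEY2 (0.075), with Hes1 (−0.035) lowest. HIC1 (0.063) and HIC2 (0.050) were higher too. The cells of cluster 4 had 1.28 and 1.29 times the median total of their libraries, and the part of depth was not tested.

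Cluster 6 was low for 3 members, in a cluster where 43% of all motifs were lower and 35.1% higher. NFIA was 0.0642% and 0.0644% there in replicates 1 and 2, under its level in each of the other clusters. Against their mean NFIA was lower by −0.054 ± 0.0068 in log2 units (SE; edgeR adjusted p = 4.01e-06). NFIX was lower by −0.031 ± 0.0050 and NFIC::TLX1 by −0.064 ± 0.016, a difference that did not pass without the replicate block (edgeR adjusted p = 0.162). NFIC, at −0.0056 ± 0.0100 (edgeR adjusted p = 0.611), did not pass. In cluster 6 all 12 GC-rich promoter motifs were higher, led by ZBTB33 (0.20), and 4 of 4 TEAD motifs were lower. Of 12 proneural bHLH motifs 8 were higher, led by NEUROD1 (0.16), and 2 lower. Of 10 photoreceptor motifs 4 were higher, led by Crx (0.24), and 3 lower, with RORB (−0.21) lowest. All 4 pigment epithelium motifs were higher and all 8 progenitor SOX motifs lower. Its cells had 0.603 and 0.662 times the median total of their libraries. The part of promoter accessibility and of depth in these folds was not tested.

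Clusters 1 and 2 divided the family. NFIA was higher in both, by 0.019 ± 0.0032 and 0.026 ± 0.0034, whereas NFIC::TLX1 was lower in both, by −0.030 ± 0.0073 and −0.047 ± 0.0080. NFIC was lower in cluster 2 (−0.028 ± 0.0051) and stood at −0.0078 in cluster 1 (edgeR adjusted p = 0.152). NFIX was higher in cluster 1 (0.012 ± 0.0024) and stood at 0.0033 in cluster 2 (edgeR adjusted p = 0.245). Without the replicate block NFIC::TLX1 in cluster 1 (edgeR adjusted p = 0.210) and NFIC in cluster 2 (edgeR adjusted p = 0.893) were not called. In cluster 1, 38.5% of all motifs were higher and 31.3% lower, and in cluster 2, 40.2% and 43.9%. TEAD motifs were higher in both clusters, 4 of 4 each. Of the 12 GC-rich promoter motifs, 3 were lower and 0 higher in cluster 1, and all 12 were lower in cluster 2. The part of promoter accessibility in the folds of clusters 1 and 2 was not tested. Of the other late progenitor and glia motifs 7 of 9 were higher in cluster 1, and 4 were higher and 3 lower in cluster 2, where SOX8 (0.13) led and Hes1 (−0.055) was lowest.

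The remaining clusters were those led by neuronal motifs. In ganglion-like cluster 3 NFIA was lower by −0.016 ± 0.0040 (SE; edgeR adjusted p = 0.00277), where 45.1% of all motifs were lower and 29.5% higher. NFIX (−0.0070), NFIC (−0.0056) and NFIC::TLX1 (0.011) did not pass there, with edgeR adjusted p of 0.0509, 0.407 and 0.275. In neurogenic bHLH-like cluster 5, NFIC::TLX1 (0.031 ± 0.0093), NFIC (0.016 ± 0.0060) and NFIX (0.013 ± 0.0031) were higher, where 32.6% of all motifs were higher and 32.1% lower. NFIA (0.0047) was not called there. Without the replicate block NFIA in cluster 3 (edgeR adjusted p = 0.106) and NFIC and NFIC::TLX1 in cluster 5 (edgeR adjusted p = 0.968 and 0.383) were not called.

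**Figure D4:**
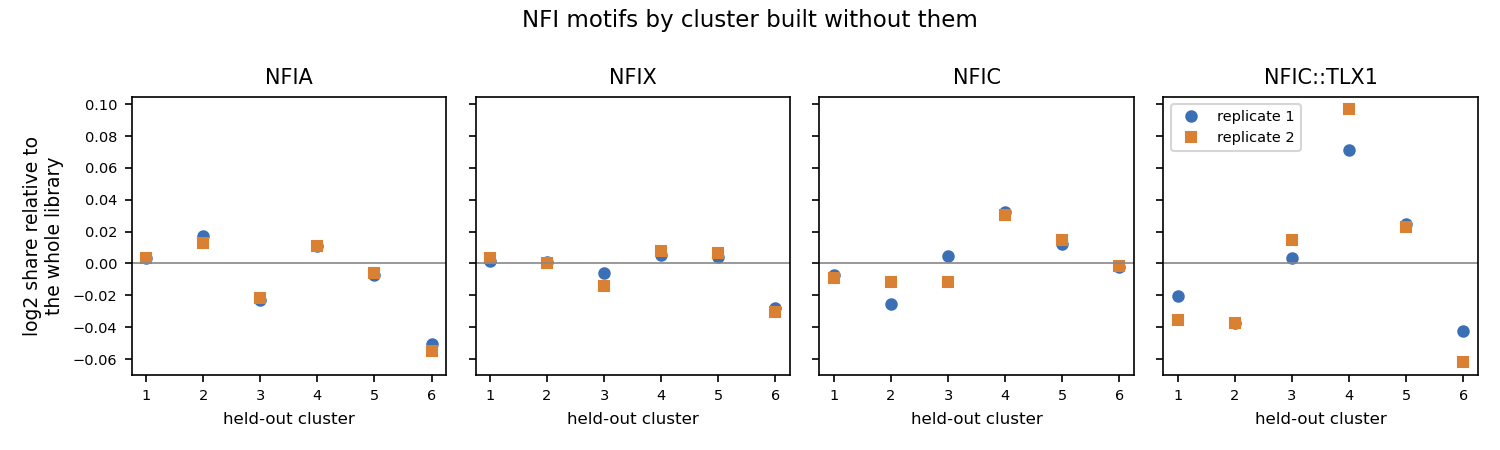
Log2 share of each NFI motif in 6 clusters built without the family (x axis), relative to the whole library (y axis, 0 is the library's own share), with a circle for replicate 1 and a square for replicate 2. NFIA and NFIX dip in cluster 6, NFIC and NFIC::TLX1 peak in cluster 4, and NFIC::TLX1 spans the widest range of the 4.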

How the data were processed

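Single-cell chromatin accessibility was measured in 2 libraries of E14.5 retina. The authors deposited raw counts of 579 motifs per barcode, with software version 1.1.0 per the file headers; Cell Ranger and the build mm10 are named in the submitters' processing notes. How peaks and motif matches were called is not given in the sources used here. Each library's total was 3373212147 and 3932721221 counts. The members, the motif lists, the cell filter and the named motifs (nearest by r, next in rank, leading a cluster, extreme in a list) were chosen with earlier results of these data known. LHX1 and PTF1A had no motif.

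Excess CV is the CV of depth-scaled counts with Poisson noise removed, and its residual is from a lowess trend (fraction 0.3) over all motifs. Correlations used log2(counts per 10000 + a pseudocount of 1). Clusters used 15 principal components, 20 neighbours and Leiden resolution 0.5 (scanpy 1.11.5, igraph 0.11.9), leaving out the 4 NFI motifs and any with r above 0.7 to them, of which there were 0. Sums of at least 20 cells were tested with edgeR 4.0.16 (TMM, quasi-likelihood, legacy = FALSE). Benjamini-Hochberg adjustment was over 579 motifs, with a threshold of 0.05 and 5 residual degrees of freedom. Between clusters 567 motifs were called in this way, and 542 with the legacy setting. The block is the library (each library gives 1 sum per cluster). No doublet caller was run.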

Additional observations from a re-analysis of the deposited data

How the results depend on the processing

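Of 224 values recomputed under another setting, 160 kept their direction and call or stayed within 1 SD. Counts of called motifs had a looser rule, under which 3 of 4 members without the replicate block counted as kept. Some of the 160 could not move: holding out only the 4 NFI motifs gave the main clusters again, and the edgeR count filter removed no motif. The NFIC ratio of the libraries ran from 0.40 to 0.43. With all deposited barcodes the residuals from the CV trend turned for NFIA (0.035) and NFIX (0.026) and went to −0.015 for NFIC, and the r of NFIA and NFIX was 0.25; most of those barcodes are shallow. Without shared barcodes only 18 and 126 cells remained. There the residuals were −0.45 for NFIX, −0.30 for NFIC and 0.17 for NFIC::TLX1, the r of NFIA and NFIX 0.28, the r of NFIX and NFIC::TLX1 turned to −0.019 and the library ratio of NFIA to 0.028, and the clustering was not run. NFIC and NFIC::TLX1 residuals were −0.36 and 0.11 at a minimum total of 1000000 and −0.34 and 0.19 in thinned cells, and NFIC had −0.28 with a running median and −0.22 in the middle tertile of cells. From 1 library each, residuals ran from −0.46 to −0.36 (NFIA), −0.82 to −0.70 (NFIX), −0.33 to −0.31 (NFIC) and 0.032 to 0.078 (NFIC::TLX1), and the r of NFIA and NFIX from 0.34 to 0.36. With no replicate block 349 in place of 567 of all motifs were called between clusters, and NFIC was not (edgeR adjusted p = 0.9999); the library gap of NFIC then enters the spread. The range of adjusted p over the alternatives was 1.06e-06 to 0.9999 for NFIC. All 4 members were called under the other settings tried, DESeq2 and no TMM among them, but without TMM NFIC in cluster 5 was not (edgeR adjusted p = 0.0526), while NFIC in cluster 1, and NFIX in clusters 2 and 3, were. The middle-tertile clusters, the centred log ratio and the edgeR legacy setting were added after the data had been seen. Excess CVs of rare motifs are limited by counts per cell.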
